A study of Dendrobium officinale with 6 samples.

Results

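The unigenes described here are those of Dendrobium officinale whose best match in the NR protein database carries the name of a late embryogenesis abundant (LEA) protein, a dehydrin, an abscisic stress-ripening (ASR) protein, an oleosin, a caleosin, a vicilin, an 11S globulin or a seed storage protein. The names selected 63 of the 157901 assembled unigenes. There were 22 LEA unigenes, 8 dehydrins, 15 ASR unigenes, 4 oleosins, 13 vicilins and 1 other unigene with seed storage in its description, while caleosin and 11S globulin found 0 each. Of the vicilins, 10 also carried the words seed storage and were counted once, under vicilin. The best NR match was a Dendrobium protein for 60 of the 63, and none of the 63 matched an organism outside the land plants, against 270 of all 99474 unigenes with an NR match.

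RNA-Seq was done on protocorm-like bodies (PLBs, the small embryo-like bodies that orchids form in culture) and on leaves, with 3 biological replicates of each according to the labels. The PLBs came from seed, and the labels give for them an MS-based medium with α-NAA at 0.5 mg/L, 6-BA at 1.0 mg/L, 2,4-D at 1.5 to 2.0 mg/L and potato juice at 100 g/L, at 70% humidity and 1600 lx, with 16 h light and 8 h dark, for 60 days. The study's methods describe this medium as that of the propagation step, which followed a first culture of the seeds with 2,4-D as the only hormone. The leaves came from the original plant and had not been in culture, and the study's methods describe greenhouse plants under another day length. Tissue, hormone-containing medium, light and other growth conditions, and seed origin therefore cannot be told apart in any comparison. Reads were assembled into unigenes without a genome. A unigene is therefore a contig, and contigs of similar sequence carry a common cluster number, written CL before the contig number.

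LEA proteins are very hydrophilic proteins that accumulate as a seed matures and dries, and in other tissues under drought, cold or abscisic acid, and they are known for keeping membranes and proteins intact when water is lost. Dehydrins are one LEA family, recognised by lysine-rich repeats. ASR proteins are small, hydrophilic, plant-specific proteins first found in tomato, where abscisic acid, water stress and fruit ripening induce them. Oleosins coat the oil bodies in which seeds keep triacylglycerol, and caleosins are calcium-binding proteins of the same surface. Vicilins and 11S globulins are storage proteins with cupin domains, laid down in vacuoles of the embryo as a nitrogen reserve. Orchid seeds are minute and lack a developed endosperm, and a protocorm is the body that their embryo forms before shoot and root.

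The leading name group differed between the tissues, LEA unigenes in PLBs and ASR unigenes in leaves. LEA unigenes made up 53.6% of the summed FPKM (fragments per kilobase of contig, scaled to the mapped fragments of the library) of all 63 in PLBs and 6.33% in leaves, and ASR unigenes 12.6% in PLBs and 77.8% in leaves. All 63 together summed to 1670.6, 2245.3 and 1225.4 FPKM in PLB replicates 1 to 3, against 3460.4, 3453.4 and 3337.0 FPKM in leaf replicates 1 to 3. More of them were detected in PLBs, where 57, 56 and 50 had an FPKM above 0, against 38, 36 and 35 in leaves. Detection was not counted over all unigenes, so this describes the 63 only. In bulk tissue, fewer cells of a type and less RNA per cell cannot be told apart.

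A unigene was called when the edgeR quasi-likelihood test gave a Benjamini-Hochberg adjusted p of at most 0.001 over all 70383 unigenes tested and the fold was at least 2. Of the 63, 46 had enough counts to be tested, 18 were higher in PLBs, 10 were lower and 18 passed neither way, so that 60.9% of those tested were called. Over all unigenes tested, 39.7% were called, 16.8% higher in PLBs and 22.9% lower. The count of those called is a description of those that passed the filter only, because 21 of the 46 had at least 10 counts in every PLB library and fewer in every leaf library, and 2 had the reverse. The FPKM ranges of PLBs and leaves did not overlap for 41 of the 46, with 28 above leaves in PLBs and 13 below, against 79.3% of all unigenes tested (42.8% above and 36.5% below). At 0 in all leaf libraries and above 0 in PLBs were 22 of the 63, and 3 were the reverse. These counts were not set against such counts over all unigenes and describe the 63 only. Unigene62569_All, a dehydrin, was at 0 in all 6 libraries, as were 9519 of all 157901 unigenes.

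The number of calls was smaller in every fit without 1 library, and so was the share over all unigenes. The calls numbered 18, 15 and 23 without PLB replicates 1, 2 and 3, and 12, 11 and 11 without leaf replicates 1, 2 and 3. The share of all unigenes called was 39.7% with all libraries. In the same fits this share was 23.8%, 21.9% and 23.1%, then 16.6%, 15.7% and 14.7%. How far the smaller number of libraries accounts for the lost calls was not tested. In every one of these 6 fits 11 of the 28 kept their call, 6 higher and 5 lower in PLBs, and no called unigene changed sign. The adjusted p of the other 17 reached 0.00713 at most.

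**Figure D1:**
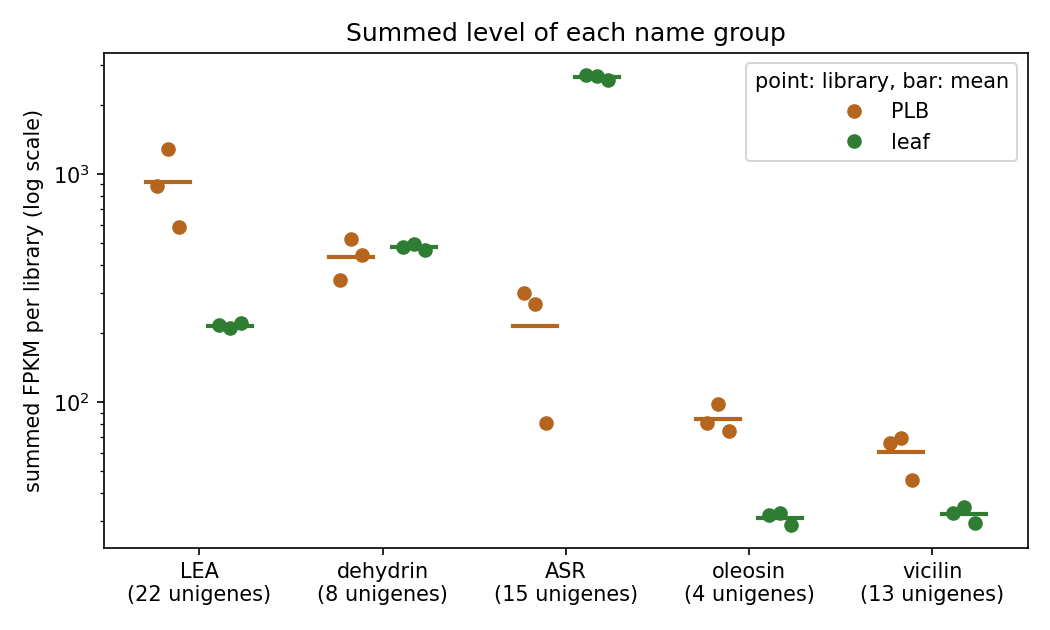
Summed FPKM of each name group per library, on a log axis, with PLBs left of leaves; points are libraries and bars are means of 3. The LEA points of PLBs (585.3 to 1288.1) lie above those of leaves (210.2 to 221.9), the ASR points of PLBs (80.6 to 299.8) lie below those of leaves (2592.8 to 2700.8), and the dehydrin points overlap.

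The LEA unigenes summed to 881.4, 1288.1 and 585.3 FPKM in PLBs, against 216.7, 210.2 and 221.9 FPKM in leaves, which is 918.3 ± 352.8 in PLBs and 216.3 ± 5.85 in leaves (SD, n = 3 each). The PLB libraries were all above the leaf libraries and differed among themselves far more than the leaf libraries did. Of the 22, 18 were tested, 11 were higher in PLBs, 1 was lower and 6 were not called. Over all unigenes tested, 16.8% were called higher and 22.9% lower. Clusters CL14181 and CL3383 gave 3 of the 11 each, and contigs of 1 cluster need not be separate genes. The median log2 fold change of the 18 LEA unigenes was 8.14, or 6.29 when unigenes at 0 in a tissue were set to their bound. For all unigenes tested it was 0.00, without bounds. Of the 18, 10 were at 0 in a tissue and passed the filter only through the other. The median therefore describes those tested and is not a test of the group. The same limit holds for the medians of dehydrins, ASR unigenes and vicilins.

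The LEA unigene with the most counts was CL14030.Contig2_All, named an 11 kDa LEA protein, of the LEA group 1 domain family. It had 349.7, 576.1 and 202.1 FPKM in PLBs and was at 0 in every leaf library. It was at least 4196.6-fold higher in PLBs (12531 counts in PLBs against 0 in leaves, with a floor of 3 counts over the 3 leaf libraries), with an adjusted p of 9.26e-05, and it was 101st by mean level among all unigenes in PLBs. The LEA group 1 domain was found in 6 LEA unigenes, which summed to 446.1, 732.2 and 253.9 FPKM in PLBs and to 0 in all leaf libraries. Of these 6, 5 were tested and 4 were called higher in PLBs.

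CL3383.Contig3_All, named for LEA protein D-29, a cotton seed protein, had 105.7, 168.8 and 119.4 FPKM in PLBs, against 0.16, 0.40 and 0.31 FPKM in leaves. Its log2 fold change was 8.42 ± 0.36 (SE), with an adjusted p of 4.62e-06. CL14181.Contig3_All, named for PHV A1, the homolog of an abscisic acid-inducible barley LEA protein, had 58.1, 120.7 and 88.9 FPKM in PLBs, against 0.07, 0.07 and 0.15 FPKM in leaves. The PLB and leaf values of both unigenes lay far apart, with leaf levels below 1 FPKM throughout. The log2 fold change of CL14181.Contig3_All was 9.51 ± 0.47, with an adjusted p of 6.48e-06.

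A pair of unigenes named LEA 18 were at 0 in all leaf libraries. Unigene36954_All had 63.8, 76.7 and 15.7 FPKM in PLBs and was at least 466.2-fold higher there (adjusted p = 0.000699). Unigene30352_All had 19.1, 55.6 and 19.8 FPKM in PLBs and was at least 274.3-fold higher (adjusted p = 0.000512). A further LEA 18 unigene, Unigene3029_All, was below the filter with 10.7, 10.2 and 0 FPKM in PLBs and 0 in leaves. The lowest value of Unigene36954_All was in PLB replicate 3, where Unigene3029_All was at 0.

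The LEA unigenes of the Lea5 and Lea14 types, which cotton also expresses in seeds and stressed leaves, were present in both tissues. CL12373.Contig1_All, named Lea5, had 27.6, 29.4 and 9.02 FPKM in PLBs, against 130.4, 118.5 and 131.9 FPKM in leaves, and was the only LEA unigene called lower in PLBs (log2 fold change −2.83 ± 0.42, adjusted p = 0.000601). Its cluster partner CL12373.Contig3_All had 136.4, 105.9 and 28.5 FPKM in PLBs, against 33.2, 33.4 and 28.5 FPKM in leaves, and was not called (1.2 ± 0.49, adjusted p = 0.058). The pair thus leaned in opposite directions, and both were lowest among PLBs in replicate 3. CL12225.Contig2_All, named Lea14-A, had 59.6, 58.2 and 34.4 FPKM in PLBs, against 46.8, 51.0 and 56.0 FPKM in leaves, with ranges that overlapped (−0.32 ± 0.23, adjusted p = 0.239). Unigene18934_All, the 1 LEA unigene with a seed maturation protein domain, had 6.55, 2.76 and 0.41 FPKM in PLBs, against 1.45, 1.79 and 1.46 FPKM in leaves, and the ranges overlapped (adjusted p = 0.425).

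Among the LEA calls, CL14030.Contig2_All, CL14181.Contig3_All, CL3383.Contig3_All and CL3383.Contig2_All (log2 fold change 7.24) kept theirs without any 1 library. The other 8 lost the call in 3 or more of the 6 fits, with adjusted p values of 0.00528 at most: Unigene36954_All and CL12373.Contig1_All kept it only without PLB replicate 3, and Unigene30352_All only without PLB replicate 2. CL12373.Contig3_All was called higher without PLB replicate 3 (adjusted p = 0.000259).

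**Figure D2:**
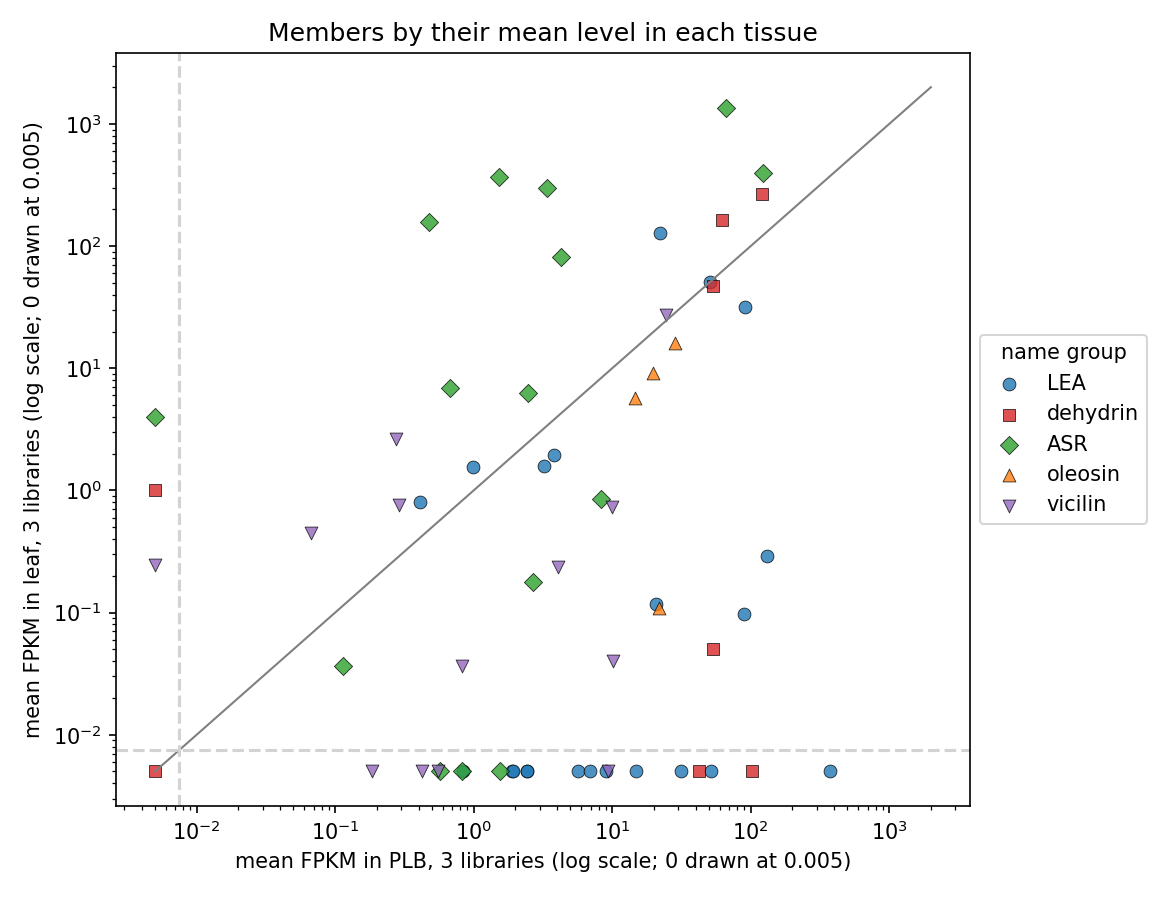
Mean FPKM of 62 unigenes in PLBs (x axis) and in leaves (y axis), 3 libraries each, on log axes with 0 drawn at 0.005 beyond the dashed lines; the diagonal marks equal levels, and the 1 seed storage unigene is not drawn. LEA circles crowd the right and bottom, where leaf levels are at or near 0. Most ASR diamonds lie above the diagonal, while those of CL8583 and Unigene37487_All lie below it.

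The DHN4-like dehydrins were seen almost only in PLBs, and HIRD11 and 1 COR410 contig were seen in both tissues and were lower in PLBs. The sum of all dehydrins was 342.2, 519.5 and 439.4 FPKM in PLBs, against 478.4, 490.8 and 464.1 FPKM in leaves. That is 433.7 ± 88.8 in PLBs and 477.8 ± 13.4 in leaves, with ranges that overlapped in FPKM. FPKM lacks the scaling factors of the tests, which were 1.07 to 1.14 in PLBs and 0.892 to 0.903 in leaves. The overlap was not examined with these factors. Of the 8, 6 were tested, 3 were higher in PLBs, 2 were lower and 1 was not called. The median log2 fold change was 4.77, or 4.54 with bounds. The shares called over all unigenes tested were 16.8% higher and 22.9% lower.

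The 3 dehydrins called higher in PLBs are all named DHN4-like, after a barley dehydrin induced by drying. Unigene62568_All had 29.9, 128.2 and 147.9 FPKM in PLBs and 0 in every leaf library, at least 1911.6-fold higher in PLBs (adjusted p = 0.00044). Unigene1437_All had 25.9, 78.2 and 56.6 FPKM in PLBs, against 0.05, 0 and 0.10 FPKM in leaves. With 3301 counts in PLBs and 3 in leaves, the ratio of Unigene1437_All was 1105.5 with an exact 95% counting interval of 378.0 to 5363.4, and its adjusted p was 3.18e-05. Unigene80445_All had 28.0, 73.8 and 24.7 FPKM in PLBs and 0 in leaves, at least 585.1-fold higher in PLBs (adjusted p = 0.000359). All 4 DHN4-like unigenes, with Unigene62569_All, had their best nucleotide match at 1 Dendrobium catenatum locus, so the 3 calls need not come from separate genes. Unigene62568_All and Unigene1437_All were lowest among PLBs in replicate 1 and Unigene80445_All in replicate 3.

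The dehydrins of both tissues were named HIRD11 and COR410. Unigene566_All, named for HIRD11, a histidine-rich Arabidopsis dehydrin, had 133.6, 114.5 and 112.7 FPKM in PLBs, against 263.6, 275.5 and 262.1 FPKM in leaves, and was lower in PLBs by a log2 fold change of −1.46 ± 0.12 (adjusted p = 4.57e-05). CL5231.Contig1_All, named for COR410, an acidic wheat dehydrin induced by cold, had 68.6, 65.6 and 52.1 FPKM in PLBs, against 163.4, 169.2 and 154.6 FPKM in leaves, and was also lower (−1.70 ± 0.15, adjusted p = 5.94e-05). Its partner CL5231.Contig2_All had 56.2, 59.2 and 45.4 FPKM in PLBs, against 49.9, 45.1 and 46.7 FPKM in leaves, and was not called (−0.12 ± 0.15, adjusted p = 0.477). HIRD11 and the first COR410 contig were separated between the tissues, while the other COR410 contig overlapped and its sign turned to 0.19 when scaled by library size only. CL5231.Contig3_All was at 0 in PLBs and had 1.47, 0.96 and 0.60 FPKM in leaves, below the filter, and was at least 8.96-fold higher in leaves.

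Without 1 library, Unigene566_All, CL5231.Contig1_All and Unigene1437_All kept their calls in all 6 fits. Unigene62568_All kept its call only without PLB replicate 1 and Unigene80445_All only without PLB replicate 2, with adjusted p values of 0.00362 at most in the other fits.

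**Figure D3:**
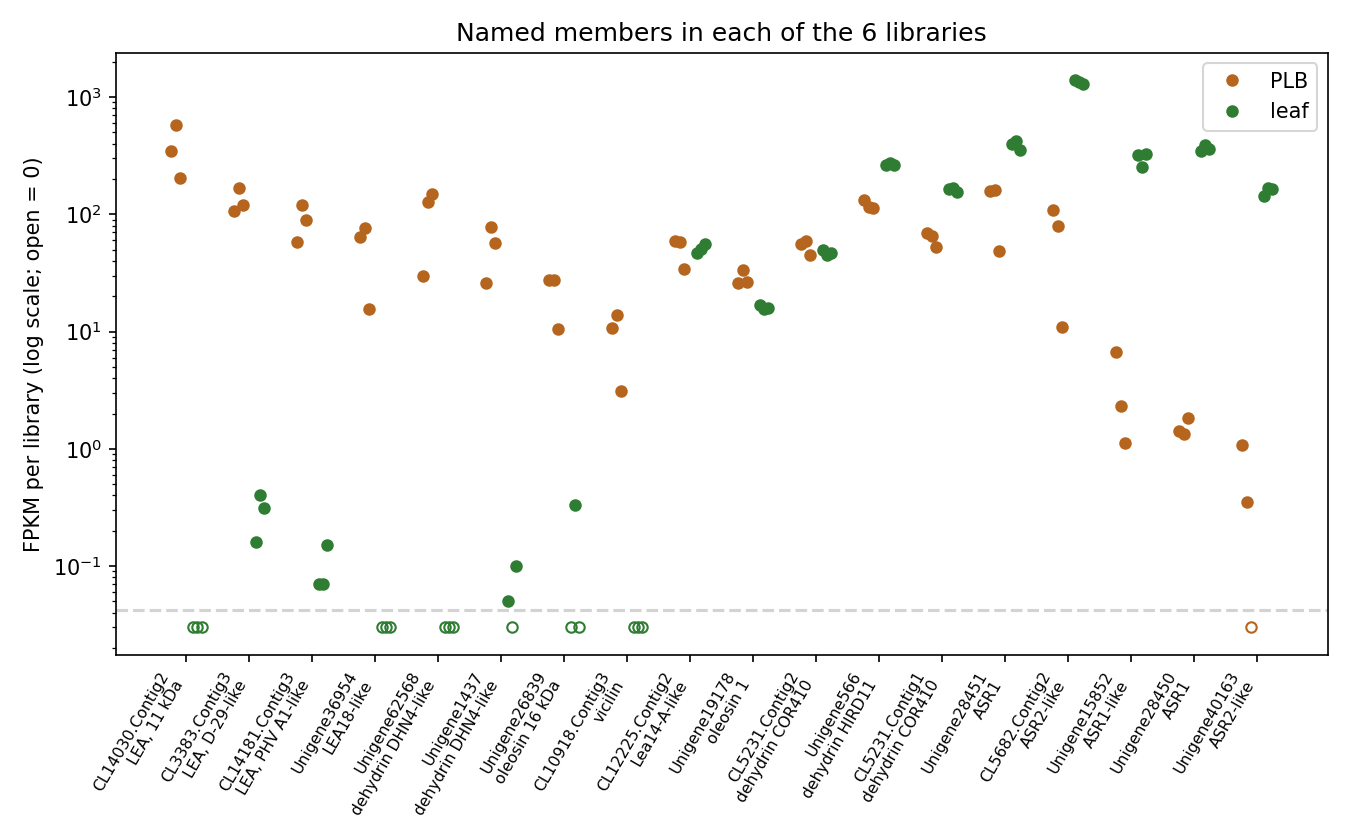
FPKM of 18 named unigenes in each library on a log axis, PLBs left of leaves, with open points for 0 drawn beneath the dashed line. From left to right the order runs from LEA, DHN4-like, oleosin and vicilin unigenes above leaves in PLBs, through unigenes of similar level, to ASR unigenes such as Unigene28450_All with 1.34 to 1.84 FPKM in PLBs and 349.1 to 389.9 FPKM in leaves.

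The ASR unigenes were the most abundant name group in leaves. They summed to 299.8, 269.3 and 80.6 FPKM in PLBs, against 2700.8, 2685.0 and 2592.8 FPKM in leaves (216.6 ± 118.7 in PLBs and 2659.6 ± 58.3 in leaves). Every leaf library exceeded every PLB library, and PLB replicate 3 was the lowest. Of the 15, 12 were tested, none was called higher in PLBs, 7 were lower and 5 were not called. The median log2 fold change was −4.09. The shares called over all unigenes tested were 16.8% higher and 22.9% lower. Among the 7, 3 share 1 best nucleotide locus and 2 share another. None of the 12 had overlapping FPKM ranges, with 9 below leaves in PLBs and 3 above. Of all unigenes tested, 79.3% had no overlap, 36.5% below leaves and 42.8% above. Of the 15, 8 carried the ABA/WDS induced protein domain that defines ASR proteins, and 6 had a best nucleotide match described as dehydrin DHN3-like, so the NR and nucleotide names disagree for these.

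CL5682.Contig2_All, an ASR2-like unigene, alone held 50.5% of the leaf ASR level and was 37th by mean level among all unigenes in leaves. It had 109.8, 79.2 and 11 FPKM in PLBs, against 1388.1, 1342.4 and 1295.5 FPKM in leaves, a log2 fold change of −4.64 ± 0.76 with an adjusted p of 0.000997. Its partner CL5682.Contig1_All had 7.16, 5.04 and 0.52 FPKM in PLBs, against 82.1, 84.2 and 76.0 FPKM in leaves (−4.56 ± 0.74, adjusted p = 0.000921). Both stood at the threshold of the call although their tissues were far apart, and in both PLB replicate 3 lay well below the other PLBs.

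Unigene28450_All, Unigene28451_All and Unigene28449_All are named ASR1 and share a best nucleotide locus, with unequal differences between the tissues. Unigene28450_All had 1.42, 1.34 and 1.84 FPKM in PLBs, against 349.1, 389.9 and 357.6 FPKM in leaves, a log2 fold change of −8.20 ± 0.20 (adjusted p = 1.63e-06). Unigene28451_All had 158.6, 161.9 and 48.8 FPKM in PLBs, against 399.9, 425.1 and 355.1 FPKM in leaves, and was not called (−1.98 ± 0.43, adjusted p = 0.0038). Unigene28449_All was at 0 in all PLBs and had 3.62, 3.81 and 4.46 FPKM in leaves, at least 56.4-fold higher in leaves (adjusted p = 0.00017). Unigene28451_All was thus the main ASR unigene of PLBs and Unigene28450_All was close to absent there, although leaves held the pair at like levels. The locus holds 7 unigenes, 6 of them ASR members, and these need not be separate genes. The sum over the locus was lower in PLBs (−3.19 ± 0.42, adjusted p = 0.00022). The test of Unigene28451_All turned on PLB replicate 3, without which it was lower in PLBs (−1.59, adjusted p = 0.000153).

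Unigene15852_All, named ASR1-like, had 6.67, 2.34 and 1.13 FPKM in PLBs, against 317.8, 255.6 and 328.4 FPKM in leaves (−6.79 ± 0.52, adjusted p = 3.05e-05). Unigene40163_All, named ASR2-like, had 1.07, 0.35 and 0 FPKM in PLBs, against 143.5, 168.6 and 165.1 FPKM in leaves (−8.66 ± 0.57, adjusted p = 1.64e-05). Every leaf library of both was far above every PLB library. CL13890.Contig2_All, at lower level, was also called lower in PLBs (−3.62, adjusted p = 0.000552).

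The 5 contigs of CL8583, named ASR1-like, leaned the other way, and were chosen for mention after their values were seen. CL8583.Contig1_All had 3.17, 10.3 and 11.4 FPKM in PLBs, against 1.12, 0.81 and 0.64 FPKM in leaves (2.98 ± 0.59, adjusted p = 0.00253). CL8583.Contig4_All had 3.50, 3.14 and 1.36 FPKM in PLBs, against 0.13, 0.26 and 0.14 FPKM in leaves (3.50 ± 0.60, adjusted p = 0.00125). Neither passed the call as a contig, and the sum over the cluster is given with the other clusters.

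Unigene28450_All, Unigene15852_All and Unigene40163_All kept their calls without any 1 library. CL5682.Contig1_All and CL5682.Contig2_All kept theirs only without PLB replicate 3 (adjusted p of 0.00647 at most otherwise), CL13890.Contig2_All only without PLB replicate 1 (0.00333 at most), and Unigene28449_All lost it without any leaf replicate (0.00171 at most). Both CL5682 contigs also lost the call when scaled by library size only (adjusted p = 0.00135 for CL5682.Contig2_All and 0.00128 for CL5682.Contig1_All), while CL8583.Contig1_All was called higher without PLB replicate 1 (adjusted p = 0.000526).

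The oleosin sum was above leaves in every PLB library. Among the 4 oleosins 1 was called, where 39.7% of all unigenes tested were called. The oleosins summed to 81.1, 98.2 and 74.5 FPKM in PLBs, against 31.8, 32.6 and 28.9 FPKM in leaves (84.6 ± 12.2 in PLBs and 31.1 ± 1.95 in leaves). All 4 had FPKM ranges above leaves in PLBs, against 42.8% of all unigenes tested, with a median log2 fold change of 0.92. Unigene26839_All, named a 16 kDa oleosin, had 27.4, 27.5 and 10.5 FPKM in PLBs, against 0, 0.33 and 0 FPKM in leaves. With 584 counts in PLBs and 3 in leaves its ratio was 195.6 with an exact 95% counting interval of 66.6 to 951.1, and its adjusted p was 0.000227. This call remained only without PLB replicate 3 among the fits without 1 library, with adjusted p values of 0.00196 at most.

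The other oleosins were present in both tissues. Unigene19178_All, named oleosin 1, had 26.0, 33.3 and 26.7 FPKM in PLBs, against 16.8, 15.6 and 15.8 FPKM in leaves (0.53 ± 0.17, adjusted p = 0.0233). CL7734.Contig1_All had 17.1, 19.2 and 22.7 FPKM in PLBs, against 8.98, 11.1 and 7.65 FPKM in leaves (0.78 ± 0.21, adjusted p = 0.0112). CL7734.Contig2_All had 10.6, 18.2 and 14.7 FPKM in PLBs, against 6.07, 5.57 and 5.41 FPKM in leaves (1.05 ± 0.27, adjusted p = 0.00834). None of these 3 passed the call, and each PLB library was above each leaf library.

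The vicilins are described by their domain. The 6 with a cupin domain, the fold of seed globulins, summed to 31.9, 33.9 and 6.45 FPKM in PLBs, against 0.51, 1.58 and 0.82 FPKM in leaves. The 7 without one summed to 34.2, 35.8 and 39.1 FPKM in PLBs, against 32.1, 33.1 and 28.6 FPKM in leaves. The cupin sum was above leaves in every PLB library and lowest in PLB replicate 3. The sum of the others was 36.4 ± 2.52 FPKM in PLBs and 31.3 ± 2.39 FPKM in leaves, without the scaling factors of the tests. With those factors, the 3 tested among the others had a median log2 fold change of −0.46. Of all 13, 6 were tested, 3 were higher in PLBs, none was lower and 3 were not called, with a median log2 fold change of 3.65. The shares called over all unigenes tested were 16.8% higher and 22.9% lower.

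CL10918 held most of the cupin signal. CL10918.Contig3_All had 10.8, 13.8 and 3.12 FPKM in PLBs and 0 in leaves, at least 225.1-fold higher in PLBs (adjusted p = 0.000764). CL10918.Contig5_All had 14.4, 14.2 and 1.72 FPKM in PLBs, against 0.12, 0 and 0 FPKM in leaves. With 801 counts in PLBs and 3 in leaves, the ratio of CL10918.Contig5_All was 268.3 with an exact 95% counting interval of 91.5 to 1303.5 (adjusted p = 0.000919). CL10918.Contig4_All had 4.91, 5.73 and 1.61 FPKM in PLBs, against 0.10, 0.35 and 0.26 FPKM in leaves, and was not called (3.83 ± 0.65, adjusted p = 0.00114). All 3 contigs were lowest in PLB replicate 3, without which the first 2 kept their calls and CL10918.Contig4_All was called (adjusted p = 0.000538). In the other fits without 1 library the adjusted p of Contig3 and Contig5 lay above the threshold, at 0.00713 at most.

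Among vicilins without a cupin domain, Unigene40316_All had 10.2, 9.30 and 10.5 FPKM in PLBs, against 0.61, 0.71 and 0.86 FPKM in leaves (3.47 ± 0.24, adjusted p = 2.02e-05), and kept its call without any 1 library. It shares its nucleotide locus with CL12019.Contig1_All, and the sum over that locus was not called (0.02 ± 0.11, adjusted p = 0.869). Its SwissProt match is an acidic leucine-rich nuclear phosphoprotein, not a globulin. CL12019.Contig1_All had 20.8, 25.5 and 26.8 FPKM in PLBs, against 26.8, 28.7 and 26.0 FPKM in leaves, with overlapping ranges (−0.46 ± 0.15, adjusted p = 0.0264). The remaining vicilins had a mean below 3 FPKM in each tissue. The single other seed storage unigene, Unigene81293_All, named a non-specific lipid-transfer protein, had 2 counts in PLBs and 0 in leaves.

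By contig cluster, 38 of the 63 fell in 17 clusters of 51 contigs, and the other 25 stood alone, which gives 42 units. Expected counts were summed over all contigs of a cluster, members or not, because contigs of 1 cluster can share reads. Of the units, 32 were tested, 14 were higher in PLBs and 9 were lower, where 17.4% of all clusters and unclustered unigenes were called higher and 22.9% lower (40.3% either way). All 17 clusters were tested: CL14030, CL1677, CL14181, CL3383, CL13056, CL10918 and CL8583 were higher in PLBs, CL5682, CL5231, CL1849 and CL13890 were lower, and 6 were not called. Without leaf replicates 2 and 3 the units called numbered 15 and 14 in place of 23, and those higher in PLBs were 9 without PLB replicate 2, 9 without leaf replicate 2 and 7 without leaf replicate 3. CL14030, CL1677, CL14181, CL3383 and CL1849 kept their calls without any 1 library. In CL1849 the vicilin member held 26.0% of the counts and was not called itself (log2 fold change −1.7, adjusted p = 0.00495), and the other contigs are hypothetical proteins of another locus.

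CL5682, the ASR2-like cluster and the one with the most counts, had a log2 fold change of −4.66 ± 0.74 (adjusted p = 0.000523). CL5231, the COR410 dehydrins, summed to −1.17 ± 0.15 (adjusted p = 0.000145), so the cluster fell in PLBs although its second contig did not pass. CL14030, the 11 kDa LEA cluster, was at least 4228.1-fold higher in PLBs (adjusted p = 3.13e-05). CL8583, the ASR1-like cluster in which no contig was called, had 71, 142 and 149 counts in PLBs, against 13, 10 and 7 counts in leaves, and was higher in PLBs (3.26 ± 0.43, adjusted p = 0.000189). Of these 4, CL5682 kept its call only without PLB replicate 3 (adjusted p of 0.0035 at most otherwise), CL5231 lost it without any leaf replicate (0.00119 at most), and CL8583 lost it without PLB replicate 2 or any leaf replicate (0.00204 at most).

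A pair of clusters named LEA by their members took most of their counts from contigs that are not members. In CL1677 the member held 3.05% of the counts, and the rest came mainly from CL1677.Contig1_All, which is named for PHV A1, a LEA protein by its SwissProt match, but lacks the words of the rule. CL1677.Contig1_All had 963.3, 1025.7 and 539.1 FPKM in PLBs, against 0.37, 0 and 0.13 FPKM in leaves (11.87 ± 0.56, adjusted p = 5.88e-06), and was 32nd by mean level among all unigenes in PLBs, above every LEA unigene that the names selected. The cluster sum was 11.93 ± 0.53 (adjusted p = 9.83e-07). In CL12373 the members held 33.7% of the counts, the rest belonged to an oligouridylate-binding protein contig, and the sum was not called (−1.25 ± 0.46, adjusted p = 0.0353).

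No cluster with a member had contigs called in both directions, among 13 with at least 2 contigs tested, against 25.9% of 10528 such clusters in all. Grouped by the Dendrobium catenatum locus of the best nucleotide match, 60 of the 63 fell on 27 loci, of which 25 were tested, 11 were higher in PLBs, 6 were lower and 8 were not called, where 37.9% of all loci and unigenes without one were called (16.8% higher and 21.1% lower). This grouping was chosen after the data were seen, and none of the loci had members called both ways. The calls of Unigene40316_All and CL12373.Contig1_All ended in the sums of their loci, at log2 fold changes of 0.02 ± 0.11 (adjusted p = 0.869) and −1.77 ± 0.43 (adjusted p = 0.00572). The locus of CL8583.Contig1_All and CL8583.Contig3_All gained a call that neither contig had, higher in PLBs (3.25 ± 0.54, adjusted p = 0.000753).

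**Figure D4:**
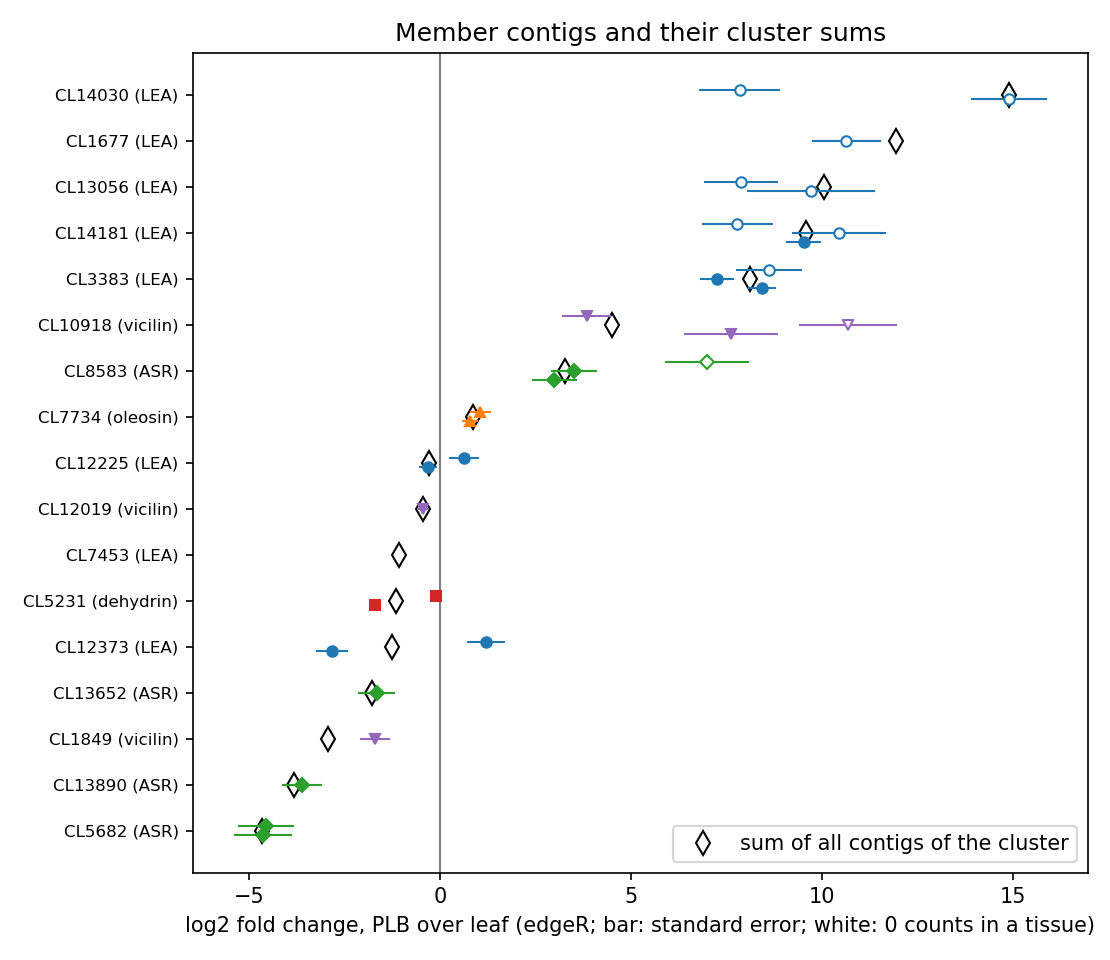
Log2 fold change, PLB over leaf, of the member contigs tested (coloured, with standard errors) and of the sum over all contigs (black diamonds) in 17 clusters; white points have 0 counts in a tissue, so their fitted value depends on the prior count. The LEA sums run from 14.90 in CL14030 to −1.25 in CL12373, and CL5682, an ASR cluster, is lowest at −4.66.

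The PLB libraries differed among themselves more than the leaf libraries. Over the 18 of the 63 with a mean of at least 1 FPKM in both tissues, the median coefficient of variation was 27.5% in PLBs and 5.97% in leaves, against 20.0% in PLBs and 12% in leaves for all 27044 such unigenes. PLB replicate 3 was the lowest PLB library for 12 of the 18, against 35.5% of all such unigenes, and leaf replicate 3 was the lowest leaf library for 11 of the 18, against 36.9%. PLB replicate 3 was the lowest for 8 of the 10 called lower in PLBs, whereas 11 of the 18 called higher were lowest in PLB replicate 1, 1 in replicate 2 and 6 in replicate 3, against 35.7%, 39.4% and 24.9% of all unigenes called higher.

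The 52 chlorophyll a-b binding unigenes, the light-harvesting proteins of chloroplasts, summed to 1768.2, 1700.6 and 596.4 FPKM in PLBs, against 13898.3, 16539.8 and 13746.9 FPKM in leaves, and of 44 tested 27 were lower in PLBs (14 to 32 without 1 library) and none was higher. Rubisco small chain unigenes summed to between 195.7 and 285.0 FPKM in PLBs and between 4127.4 and 4719.5 FPKM in leaves, but of 8 tested 5 were higher in PLBs and 3 were lower, the lower ones holding most of the leaf sum. The lowest PLB sum was in replicate 3 for chlorophyll a-b binding and Rubisco small chain unigenes. The same held for the LEA, ASR, oleosin and vicilin sums, but not for dehydrins, which were lowest in PLB replicate 1. Knotted unigenes, homeobox genes of meristems, summed to 173.4, 254.5 and 169.0 FPKM in PLBs, against 102.7, 109.7 and 103.6 FPKM in leaves, and of 24 tested 11 were higher in PLBs (4 to 6 without 1 library) and 4 were lower. The cyclin-B sums were 468.2 to 565.7 FPKM in PLBs and 435.8 to 462.7 FPKM in leaves, and histone H4 was at most 1.83 FPKM in PLBs and between 2.42 and 3.71 FPKM in leaves. The part of chloroplast-rich and meristematic cells in the LEA and ASR differences was not tested.

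Unigenes that the NR names missed, but whose Pfam or SwissProt match is named for these families, numbered 155. Of these, 128 were tested, 35 (27.3%) were higher in PLBs and 30 (23.4%) were lower, against 16.8% and 22.9% of all unigenes tested. Of 71 with the Pfam LEA protein domain, 16 were higher in PLBs and 16 were lower, and 21 of the 155 are NDR1/HIN1-like proteins, a membrane family that shares a domain with Lea14, with 6 higher and 8 lower. CL6109.Contig2_All, matched to the biotin-containing seed protein SBP65 of pea, had 57.8, 184.2 and 90.8 FPKM in PLBs, against 1.01, 1.31 and 1.56 FPKM in leaves (6.12 ± 0.55, adjusted p = 6.14e-05). CL3970.Contig3_All, with a dehydrin domain but an ankyrin repeat protein as NR match, had 46.5, 65.9 and 32.4 FPKM in PLBs, against 0.38, 0.08 and 0.55 FPKM in leaves (6.85 ± 0.56, adjusted p = 4.06e-05). These 2, both higher in PLBs, were picked after their values were seen, and they kept their calls without any 1 library. Without 1 library the calls of these 155 fell to between 14 and 28 higher and between 15 and 24 lower.

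Regulators of seed maturation numbered 64, with 41 tested. Of these 41, 8 (19.5%) were higher in PLBs and 9 (22.0%) lower, or 13 and 8 when scaled by library size only. Over all unigenes tested the shares were 16.8% and 22.9%. Most of the 64 are not the regulators themselves, since 39 of the 42 unigenes found by ABI3 are SUPPRESSOR OF ABI3-5, a splicing factor, with 3 higher and 7 lower of 27 tested. The shares of the 41 therefore describe mainly this splicing factor. FUSCA3 and leafy cotyledon found none. The unigenes given with values from the regulator, lipid droplet and storage protein lists were chosen after their values were seen. All of them were higher in PLBs, although by the call used here each list had more unigenes lower than higher. CL5191.Contig1_All, a homolog of viviparous-1, the maize counterpart of the seed regulator ABI3, had 1.78, 3.26 and 1.2 FPKM in PLBs and 0 in leaves, at least 78.4-fold higher in PLBs (adjusted p = 0.000639), a call that no fit without 1 library kept. Of 17 ABI5 unigenes, bZIP factors of abscisic acid signalling, 12 were tested, 4 were higher and 2 lower, or 8 and 2 when scaled by library size only, and 2 to 4 higher and 0 to 2 lower without 1 library. Unigene13222_All, of this kind, had 18.4, 26.3 and 27.8 FPKM in PLBs, against 2.56, 1.87 and 2.56 FPKM in leaves (3.07 ± 0.24, adjusted p = 3.42e-05). Without 1 library the 64 gave between 3 and 6 calls in each direction.

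Lipid droplet and triacylglycerol unigenes numbered 107, with 78 tested, 23 (29.5%) higher in PLBs and 24 (30.8%) lower, against 16.8% and 22.9% of all unigenes tested. Diacylglycerol O-acyltransferases, which make the last step to triacylglycerol, had 7 higher and 14 lower among 30 tested. Unigene15510_All, isocitrate lyase of the glyoxylate cycle that turns stored fat into sugar, had 14, 27.2 and 7.45 FPKM in PLBs, against 0.46, 0.58 and 0.42 FPKM in leaves (4.76 ± 0.55, adjusted p = 0.000201). Malate synthase, the next enzyme, found 23 unigenes, of which 9 were higher and 2 lower among 17 tested, but 13 of the 23 are 2-isopropylmalate synthase of leucine synthesis, with 2 higher and 2 lower. Although the name caleosin found no unigene, 4 unigenes named peroxygenase carry the caleosin domain, and Unigene15411_All among them had 11.8, 22.6 and 23.0 FPKM in PLBs, against 0.71, 0.81 and 0.79 FPKM in leaves (4.32 ± 0.35, adjusted p = 4.12e-05). CL11605.Contig2_All, an oil body-associated protein, had 54.6, 58.2 and 38 FPKM in PLBs, against 11.5, 10.5 and 10.7 FPKM in leaves (1.90 ± 0.20, adjusted p = 0.000141). Isocitrate lyase and CL11605.Contig2_All lost their calls without any leaf replicate (adjusted p of 0.0024 at most), and Unigene15411_All kept its call without any 1 library. Without 1 library between 7 and 16 of the 107 were higher and between 15 and 20 lower.

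Unigenes for the deposition of storage proteins numbered 44, with 32 tested, 7 (21.9%) higher in PLBs and 9 (28.1%) lower, against 16.8% and 22.9% of all unigenes tested. Vacuolar-processing enzymes, the proteases that mature storage globulins, had 3 higher and 4 lower among 18 tested, and vacuolar-sorting receptors, which carry these proteins to the vacuole, 2 higher and 4 lower among 10. The vacuolar-processing enzyme Unigene39749_All had 202.3, 377.1 and 206.9 FPKM in PLBs, against 34.0, 38 and 35.6 FPKM in leaves (2.57 ± 0.29, adjusted p = 0.000172), a call lost without any leaf replicate (adjusted p of 0.00227 at most). The words 2S albumin, legumin, cupin and prolamin found 0 unigenes, and glutelin found 5, with 1 higher and 1 lower among 3 tested. The word globulin found Unigene33329_All, named for a basic globulin, which had 8.38, 10.1 and 3.16 FPKM in PLBs, against 0.12, 0.16 and 0.29 FPKM in leaves (4.90 ± 0.60, adjusted p = 0.000259), a call kept only without PLB replicate 3 among the fits without 1 library (adjusted p of 0.00253 at most). Without 1 library between 1 and 5 of the 44 were higher in PLBs and between 6 and 8 lower.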

How the data were processed

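RNA-Seq reads of 3 PLB and 3 leaf libraries were sequenced on the BGISEQ-500 and assembled by the authors with Trinity and Tgicl. The submitters' processing notes name Bowtie2 2.2.5, RSEM 1.2.8 and DESeq2. For each library the authors deposited expected counts per unigene, which share out ambiguous reads between contigs of similar sequence, and FPKM, so the value of a contig can move with those of its cluster partners. The authors' tissue means, fold changes and p-values in the annotated table were not used. Its FPKM differed from the library values by 0 at most.

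Expected counts summed to 17602153 to 18408442 per library. They were rounded and fitted with edgeR 4.0.16 in R 4.3.3 (filterByExpr, TMM, quasi-likelihood F test, tissue only), adjusted by Benjamini-Hochberg over 70383 unigenes; limits of the call were an adjusted p of 0.001 and a log2 fold change of 1, after the study's methods. TMM factors were 1.07 to 1.14 in PLBs and 0.892 to 0.903 in leaves. FPKM values carry no TMM factor, so FPKM sums and ranges are on another scale than the edgeR fold changes and calls. A fold against a tissue at 0 used a floor of 3 counts over its 3 libraries, and counting intervals cover counting error only. The same fit ran on cluster sums. FPKM sums of name groups were given no test, since the members were chosen with results known.

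Named were, per name group, the 5 unigenes with the most counts and, among called ones with a mean of at least 1 FPKM in a tissue, the 3 with the largest change each way, plus the 5 clusters with the most counts; other names are descriptions. Members and gene lists were chosen with earlier results of these data known. Alternatives were DESeq2 1.42.0, RLE or library size scaling, no filter, a minimum of 1 FPKM, limma 3.58.1 on log2(FPKM + 0.1) and log2(FPKM + 1), an adjusted p of 0.05 with no minimum fold, sums per nucleotide locus, and leaving out each library. Replicates were numbered in order of deposit. The fit was tested on simulated data, and Python 3.11.15, pandas 2.3.3 and matplotlib 3.10.9 served for the rest. No sequences were used here.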

Additional observations from a re-analysis of the deposited data

How the results depend on the processing

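Of the 63 unigenes, 28 were called (18 higher in PLBs, 10 lower), and leaving out 1 library gave 11 to 23 (6 to 13 higher, 5 to 10 lower). Sums per nucleotide locus gave 17 (11 higher, 6 lower), since several unigenes became 1 locus. DESeq2 called 34, no filter 31, a minimum of 1 FPKM 27, RLE factors 28, limma 29 with a pseudocount of 0.1 and 30 with 1, and an adjusted p of 0.05 with no minimum fold 41. Scaling by library size only called 29 (21 higher, 8 lower) and moved the median of all unigenes tested to 0.32 on the log2 scale, against 0.00. Among units of clusters and single unigenes, 23 were called (14 higher, 9 lower), leaving out 1 library gave 14 to 24 (7 to 14 higher, 6 to 10 lower), and an adjusted p of 0.05 with no minimum fold raised those lower to 14. CL5231.Contig2_All, at −0.12, turned to 0.19 under library size only and to 0.17 under both limma fits. CL5682.Contig2_All lost its call under library size only (adjusted p = 0.00135) and limma with 0.1 (0.00132), CL5682.Contig1_All under the same settings (0.00128 and 0.00197), CL12373.Contig1_All under limma with 0.1 (0.00118) and CL10918.Contig5_All under limma with 1 (0.00252).

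As log2 of PLB over leaf, the summed FPKM was 2.09 for LEA, −0.14 for dehydrins, −3.62 for ASR, 1.44 for oleosins, 0.91 for vicilins and −1.0 for all. Without the unigene with the most counts it was 1.33 for LEA, 0.57 for dehydrins, 1.90 for oleosins, 2.82 for vicilins and −0.33 for all, while ASR stayed lower at −3.14. The dehydrin sum was −0.29 to 0.01 over the fits without 1 library, the 0.01 being without PLB replicate 1. The causes of these changes were not tested. No paired analysis was possible because the replicate numbers follow the order of deposit only.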

Other observations

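Some unigenes outside the names of the rule had a Pfam or SwissProt match named for these families, at times beside a different NR match. Whether they belong to the families was not tested, and those given here were picked after their values were seen. CL7685.Contig1_All, whose SwissProt match is a vicilin-like seed storage protein while its NR match is uncharacterized, had 76.8, 59.4 and 72.4 FPKM in PLBs, against 4.17, 3.61 and 3.67 FPKM in leaves (log2 fold change 3.87 ± 0.15, edgeR adjusted p = 3.91e-06). Its cluster partner CL7685.Contig2_All had 0.27, 0.20 and 0.23 FPKM in PLBs, against 14.8, 14.4 and 15.1 FPKM in leaves (−6.31 ± 0.16, edgeR adjusted p = 1.92e-06), so contigs of 1 cluster were called in opposite directions. CL8063.Contig2_All carries an oleosin domain beside an NR match to a chloroplast lipid transporter and had 17.1, 7.57 and 11.4 FPKM in PLBs, against 0.05, 0 and 0.07 FPKM in leaves (7.87 ± 0.58, edgeR adjusted p = 2.71e-05). Unigene17040_All, named an 18 kDa seed maturation protein with a LEA group 1 domain, had 7.33, 33.2 and 40.1 FPKM in PLBs and 0 in leaves, at least 328.9-fold higher in PLBs, and was not called.

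Contigs of CL11097, non-specific lipid-transfer proteins whose domain family is named for protease inhibitors, seed storage proteins and lipid transfer, also went opposite ways. CL11097.Contig1_All had 0, 0.06 and 0 FPKM in PLBs, against 846.6, 964.7 and 923.5 FPKM in leaves, with 1 count in PLBs and 43835 counts in leaves (edgeR adjusted p = 1.69e-06). CL11097.Contig3_All had 894.7, 587.8 and 299.2 FPKM in PLBs, against 49.1, 60.7 and 45.2 FPKM in leaves (3.21 ± 0.39, edgeR adjusted p = 0.000234), a call lost without PLB replicate 2 or any leaf replicate (0.00271 at most).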
